A study of Mus musculus with 12 samples.

Results

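Hox genes encode the homeodomain transcription factors that give embryonic tissue its position along the head-to-tail axis. The members described here are the genes whose row names follow the Hox pattern of a cluster letter from a to d and a paralogue number. This rule found 39 of the 21729 genes of the deposited table, which are 11 genes of cluster a, 10 of cluster b, 9 of cluster c and 9 of cluster d. Messenger RNA was read by scRNA-Seq in 12 single cultured cardiac progenitor cells (CPCs), which form 1 group. The cells were sorted as c-Kit+ and lineage-negative from the non-myocyte fraction of hearts of 12-week-old FVB mice labelled female, with 2 hearts pooled for each preparation, and had been passaged 5 times in culture. The study addressed what culture does to the transcriptome of such cells, but fresh cells were not analysed here. Neither the animal nor the culture dish behind a given cell is recorded, so the 12 cells count as 1 sample, the spread below is a description of these cells, and no test was made across them.

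In the mouse, each Hox cluster lies on its own chromosome, and the genes within a cluster are numbered from the end that is active in the anterior body to the end that is active in the posterior body. Genes with the same number in different clusters are paralogues, copies that arose when an ancestral cluster was duplicated. Cells of adult connective tissue often keep part of the Hox pattern that was laid down in the embryo, and retinoic acid, Polycomb proteins and MLL proteins are known to set and hold that pattern. In the mm10 genome cluster a spans 105 kb of chromosome 6, cluster b 174 kb of chromosome 11 (96194316 to 96368256), cluster c 116 kb of chromosome 15 (102921103 to 103036852) and cluster d 96.8 kb of chromosome 2 (74668310 to 74765142). Positions are from the GENCODE vM21 annotation of the same build and are counted from 1.

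The homeobox, 180 bases that encode the DNA-binding homeodomain, is the part that all members share. It is shown for Hoxa5, the member with the highest level per length below. The sequence was read from the annotated transcript, runs 5′ to 3′ along the gene, and lies in exon 2 of 2. Capitals mark the codons of the recognition helix, which reads the bases of the DNA.
Hoxa5, chr6:52202632-52202811, minus strand: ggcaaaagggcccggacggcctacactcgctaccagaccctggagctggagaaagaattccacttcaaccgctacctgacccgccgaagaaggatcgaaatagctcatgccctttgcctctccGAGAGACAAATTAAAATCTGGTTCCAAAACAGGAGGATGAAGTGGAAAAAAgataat
The homeoboxes of Hoxa5 and Hoxb5 shared 151 of 180 bases (83.9%) and encoded the same residue at all 60 positions. Hoxa5 and Hoxa7, of the same cluster, shared 76.7% of bases and 53 of 60 residues. The median identity was 80.6% of bases between paralogues of the same number (42 pairs, 67.2 to 93.9%), 71.1% between members of a cluster whose numbers differ by 1 (29 pairs), 60% between the remaining pairs within clusters (143 pairs) and 60.6% between pairs of different cluster and number (527 pairs).

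Because only uniquely mapped reads were kept, similar copies could have lost reads. Apart from 0.297% of the stretches of Hoxc9 and 0.194% of those of Hoxd11, no stretch of 75 bases, the read length, in the exons of a member was found in the transcripts of a gene elsewhere in the genome. Overlap with neighbouring genes was larger. Antisense or sense neighbours covered 52.9% of the exon bases of Hoxb3, 62.8% of Hoxd3, 52.3% of Hoxd4 and 35.0% of Hoxa11, and 27.1 to 27.3% of Hoxa3 and Hoxb2. The strand rule of the counting is not stated, so reads from these genes and their neighbours cannot be told apart. Hoxa5, Hoxb4, Hoxb7 and Hoxd8 shared no exon base with another gene.

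Totals ran from 3453708 counts in cell 1 to 5690184 in cell 12. A gene without a count could therefore lie at up to 0.527 to 0.869 CPM (counts of the gene scaled to a total of 1000000 in the cell), depending on the cell, which is the level of 3 counts. Over the 12 cells pooled that limit was 0.0532 CPM. Reads carry no molecular identifiers, so these limits and the exact 95% intervals below cover counting error only. The libraries were not copies of each other, since the chi-square per degree of freedom was at least 48.5 in all 66 pairs.

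Cells 3, 10 and 11 stood apart from the others in marker genes outside the Hox clusters. Cell 10 had an endothelial marker sum of 8383 CPM (median of 12 cells 12.2 CPM) and the lowest fibroblast marker sum, 187.6 CPM. Of that fibroblast sum 175.4 CPM was Pdgfra, above its median of 73.1 CPM, while Col1a1, Col1a2 and Col3a1 were at 10.7, 0.376 and 1.13 CPM. Cell 3 had a haematopoietic marker sum of 1522 CPM (median 5.72 CPM), of which 1463 CPM was Cd53, while Cd52 and Laptm5 were at 0 in each cell. Cell 11 had a mural marker sum of 3679 CPM (median 19.4 CPM), of which 3668 CPM was Acta2, whose next value was 117 CPM. Transcripts of Kit, whose receptor was the sort marker, were read in cell 10 only (3.94 CPM), while the cardiomyocyte genes Myh6, Actc1 and Nppa had none in any cell. Tnnt2, the other cardiomyocyte gene of the list, had counts in 10 cells and a median of 3.34 CPM, with its highest values in cell 12 (86.6 CPM) and cell 8 (59.1 CPM). Of the fibroblast markers 4 of 5 were counted in each cell, as were the 3 progenitor markers Ly6a, Cd34 and Abcg2. Although the hearts are labelled female, transcripts of 4 Y-linked genes (Ddx3y, Eif2s3y, Kdm5d, Uty) were present in all 12 cells, at a summed median of 172 CPM and a minimum of 9.76 CPM in cell 3, which goes against that label. Results that rest on cells 3 and 10 are given with and without them.

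Of the 39 Hox genes, 20 had a count in at least 1 cell (51.3%), against 66.6% of all genes in the table, and 19 had none. No Hox gene was counted in each of the 12 cells, against 35.3% of all genes. Hoxa5 and Hoxb4 came closest, with counts in 10 cells, and the cells that lacked both were 3 and 10. Without cells 3 and 10, these 2 genes were by construction counted in each of the remaining 10. In all, 11 members (28.2%) were counted in at least 6 cells, where 51.2% of all genes were, and 7 members (17.9%) in 1 cell only, where 6.05% of all genes were.

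**Figure D1:**
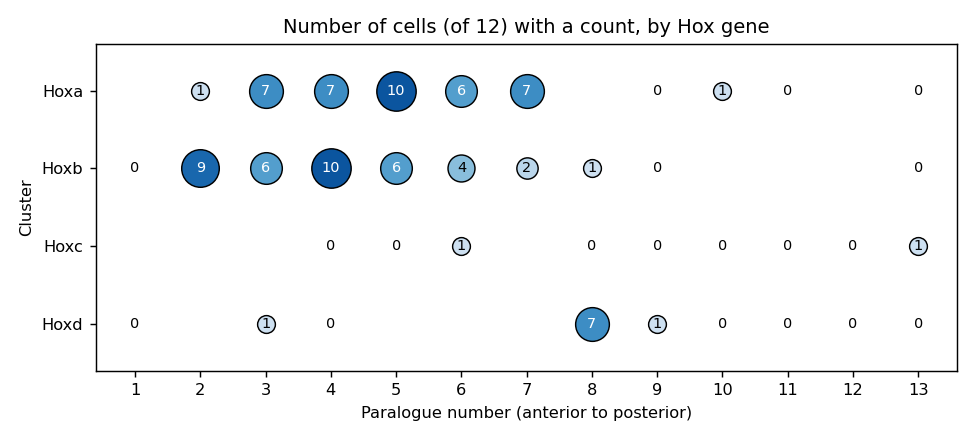
Number of cells with at least 1 count for 38 of the 39 Hox genes, by cluster (rows) and paralogue number (columns); blank positions are not drawn, and larger and darker circles stand for more cells. In clusters a and b each gene from paralogue 2 to 7 had a count in at least 1 cell, Hoxd8 had 7 cells, and the posterior end of each cluster held counts of 0 or 1 cell.

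Levels were low. The Hox genes together had 1721 counts in 12 cells (exact 95% Poisson interval 1641 to 1804). Of the 468 values of a gene in a cell, 95 had a count (20.3%, exact 95% binomial interval 16.7 to 24.2%), 11 of these rested on 1 or 2 counts, and 9 reached 10 CPM. Only 6 members (15.4%) reached 10 CPM in any cell, where 49.2% of all genes did. For genes with a mean of 1 to 10 CPM, the number of cells with a count had a median of 9 over all 3050 such genes (quartiles 6 and 11) and of 7 over the 8 Hox genes (range 2 to 10).

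The clusters differed in how often they were read. In cluster a 46 of 132 values had a count (34.8%, interval 26.8 to 43.6%) and in cluster b 38 of 120 (31.7%, 23.5 to 40.8%), and these intervals overlapped. Cluster d had 9 of 108 (8.33%, 3.88 to 15.2%) and cluster c 2 of 108 (1.85%, 0.225 to 6.53%), both below the intervals of a and b. Values of 1 cell are not independent of each other, which the intervals leave out. Without cells 3 and 10 the shares were 40.0% for a, 37.0% for b, 7.78% for d and 1.11% for c. These shares also depend on gene make-up, since clusters c and d have 10 posterior members (defined below) and a and b have 6. Posterior members were rarely read in either, with 1.67% of values in c and d and 1.39% in a and b. Central members had 11.1% in c and d and 49.1% in a and b. Anterior members had 4.17% in c and d (2 members) and 41.7% in a and b (6 members). Cluster a held 55.4% of the Hox counts, b 31.6%, d 12.3% and c 0.813%, and these shares are not corrected for gene length.

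Cluster d was represented almost wholly by Hoxd8, a central member, with 194 of its 211 counts. In cluster c the only counts were 7 of Hoxc6 in cell 2 and 7 of Hoxc13 in cell 3 (exact 95% Poisson interval 2.81 to 14.4 for each). The other 7 members of cluster c had no counts, whereas 66.6% of all genes had one in some cell.

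Along the clusters, the 15 central members, paralogues 4 to 8, carried most of the counts, which are not corrected for gene length. They held 84.3% of the Hox counts, and their summed level was at least 0.939 CPM in each cell, with a median of 22.3 CPM and a maximum of 57.8 CPM in cell 12. The anterior paralogues 1 to 3 held 13.7% of the counts, with a median sum of 3.23 CPM and a maximum of 13.7 CPM in cell 5. The posterior paralogues 9 to 13, which pattern the lumbar to tail region and the limbs, held 35 counts (2.03%). Of their 16 members 13 had no count, whereas 66.6% of all genes had one in some cell.

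**Figure D2:**
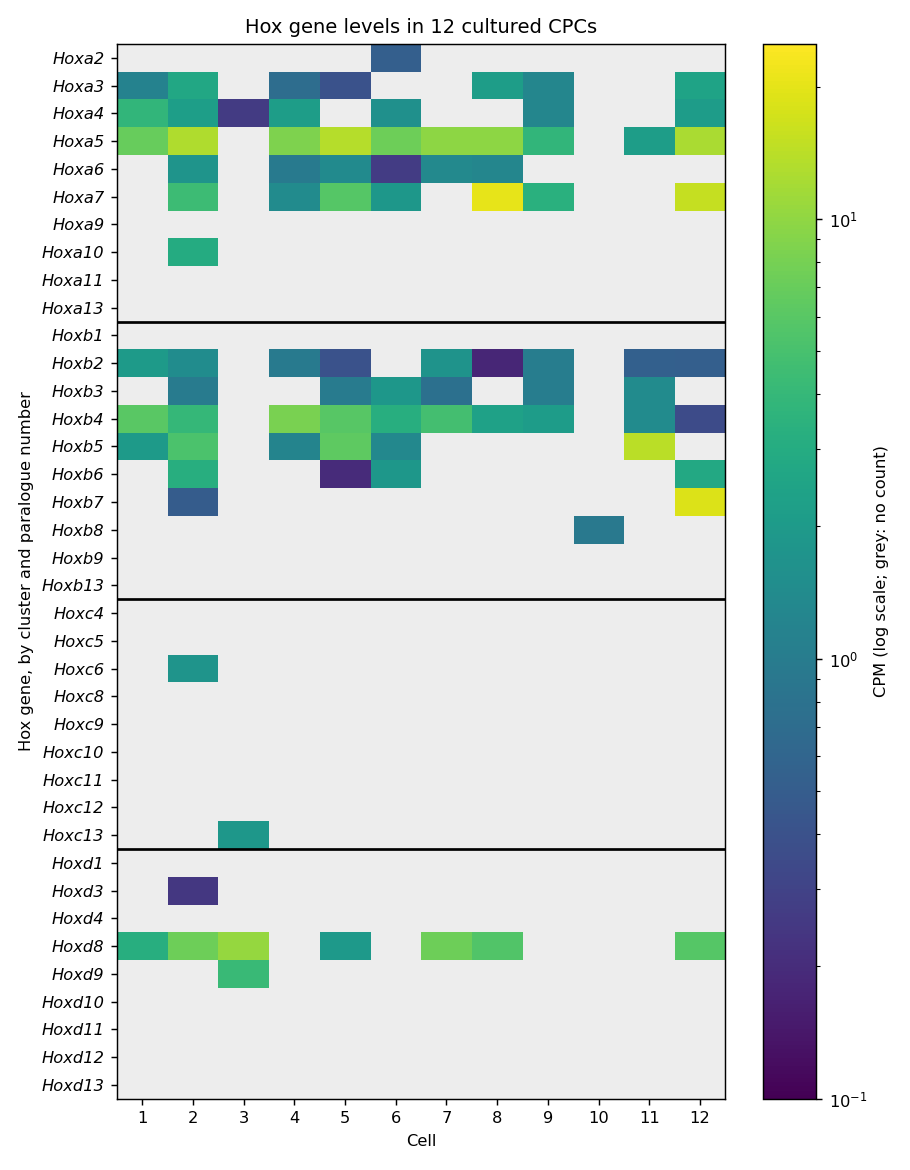
Level of 38 of the 39 Hox genes (rows, ordered by cluster and paralogue number, lines between clusters) in each of the 12 cells (columns), in CPM on a log colour scale, with grey for no count. Most of the coloured squares lie in rows 2 to 7 of clusters a and b and in the row of Hoxd8, cell 10 holds Hoxb8 alone, and the posterior rows are grey but for Hoxa10 in cell 2 and Hoxc13 and Hoxd9 in cell 3.

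In clusters a and b, all 9 central members were counted in some cell (66.6% of all genes were), and these 9 genes held 72.6% of the Hox counts. Among the anterior members of the same clusters Hoxb1, which acts in hindbrain segmentation, had no counts in any cell. By paralogue number, number 5 held 32.7% of the Hox counts, number 7 held 22.3% and number 4 held 13.2%. The share of number 7 rested on cell 12: without it number 7 held 13.7%, below number 4 at 15.5%. Numbers 11 and 12 had no counts, and a limit of 3 counts for each stands at 0.0532 CPM over the pooled cells.

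The posterior counts came from 2 cells. In cell 2, Hoxa10, known for its part in the uterus and the lumbar skeleton, had 12 counts (2.96 CPM, exact 95% Poisson interval 6.20 to 21.0 counts). In cell 3, Hoxd9 had 16 counts (4.22 CPM, 9.15 to 26.0 counts) and Hoxc13, known for its part in hair and nails, had 7 counts (1.85 CPM). Without cells 3 and 10 the posterior counts are therefore those of Hoxa10 alone.

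Among the central members, Hoxa5, which is needed for the lung, airway and cervical to thoracic skeleton, was read in 10 cells. Its level was 0 in cells 3 and 10, while the others lay between 2.17 CPM (cell 11) and 13.5 CPM (cell 5), with a median of 8.03 CPM over 12 cells and a mean of 7.30 ± 4.85 CPM (SD, 12 cells). It reached 10 CPM in 3 cells, namely 13.1 CPM in cell 2, 13.5 CPM in cell 5 and 12.5 CPM in cell 12. The gene lies on chromosome 6, 52201754 to 52204587, on the minus strand.

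Hoxb4, known for its action in blood stem cells, was found in the same 10 cells. Among them it was lowest in cell 12, at 0.351 CPM (2 counts), and highest in cell 4, at 8.15 CPM, with a median of 2.78 CPM (mean 3.20 ± 2.65, SD, 12 cells). The cell with the least Hoxb4 among the 10 was thus a cell with much Hoxa5. Hoxb4 lies on chromosome 11, 96318267 to 96321638, on the plus strand.

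Hoxd8 was counted in 7 cells, and its highest value, 10.5 CPM (40 counts), was in cell 3, which held neither Hoxa5 nor Hoxb4. Its median was 2.59 CPM and the next highest values were 7.42 CPM in cell 7 and 7.41 CPM in cell 2. The gene lies on chromosome 2, 74704615 to 74707933, on the plus strand. Cells 4, 6, 9, 10 and 11 had no Hoxd8 counts.

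The paralogue pair Hoxa7 and Hoxb7, which pattern the thoracic region, was concentrated in few cells. Hoxa7 had counts in 7 cells and a median of 1.65 CPM. It stood at 20.2 CPM in cell 8 and 15.5 CPM in cell 12, with no other cell above 5.77 CPM. Hoxb7 was at 18.8 CPM in cell 12 (107 counts), at 0.494 CPM in cell 2 (2 counts) and at 0 in the other 10 cells. Cell 12 thus held 98.2% of all Hoxb7 counts. Its neighbour Hoxb8, best known from blood progenitors and microglia, had 5 counts in cell 10 and none elsewhere.

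Hoxb5 likewise had 1 high cell, cell 11, at 14.1 CPM. The next value was 6.37 CPM in cell 5, and the median over 12 cells was 0.599 CPM. In cell 11 it made up 71.6% of the Hox counts. Cell 11 held Hoxa5 as its only member of cluster a. Hoxa4 was counted in 7 cells, with a median of 0.761 CPM and a maximum of 3.76 CPM in cell 1. Hoxa6 (6 cells) and Hoxb6 (4 cells) stayed at or under 1.73 and 3.21 CPM.

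Of the anterior members, Hoxb2, which acts in the developing hindbrain, had counts in 9 cells, a median of 0.534 CPM and a maximum of 2.03 CPM. Hoxa3, needed for the thymus and other organs of the pharyngeal pouches, had a median of 0.558 CPM (7 cells, maximum 2.72 CPM in cell 2), and Hoxb3 a median of 0.380 CPM (6 cells, maximum 1.86 CPM in cell 6). The medians of Hoxb2 and Hoxa3 lie at about the level of 3 counts and that of Hoxb3 lies below it, and these genes share the largest part of their exons with other genes among those counted in 6 or more cells. Hoxa2, which sets the identity of the pharyngeal arches, had 2 counts in cell 6, and Hoxd3 had 1 count in cell 2.

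To compare genes, levels were divided by exon length, since long transcripts give more reads. Per kb of exon, Hoxa5 had the highest mean level, 3.89 ± 2.58 CPM per kb (SD, 12 cells), followed by Hoxa7 (1.52 ± 2.31), Hoxd8 (1.27 ± 1.36), Hoxb4 (1.25 ± 1.03) and Hoxb7 (1.04 ± 3.51). Hoxb5 (0.903 ± 1.52) came next. The place of Hoxb7 came from cell 12, without which its mean was 0.0291 CPM per kb, while Hoxa5 stayed highest without any 1 of the 12 cells. The place of Hoxa7 also moved. Without cell 8 the order was Hoxa5, Hoxb4, Hoxd8, Hoxb7 and Hoxa7, and without cell 12 it was Hoxa5, Hoxb4, Hoxd8, Hoxa7 and Hoxb5. None of the 19 steps between neighbours in this order exceeded the larger SD of the pair. Cell by cell, Hoxa5 was above Hoxa7 in 9 cells and below it in 1, and it was the highest Hox gene per kb in 7 cells. The others were led by Hoxd8 in cell 3, Hoxa7 in cell 8, Hoxb8 in cell 10, Hoxb5 in cell 11 and Hoxb7 in cell 12.

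**Figure D3:**
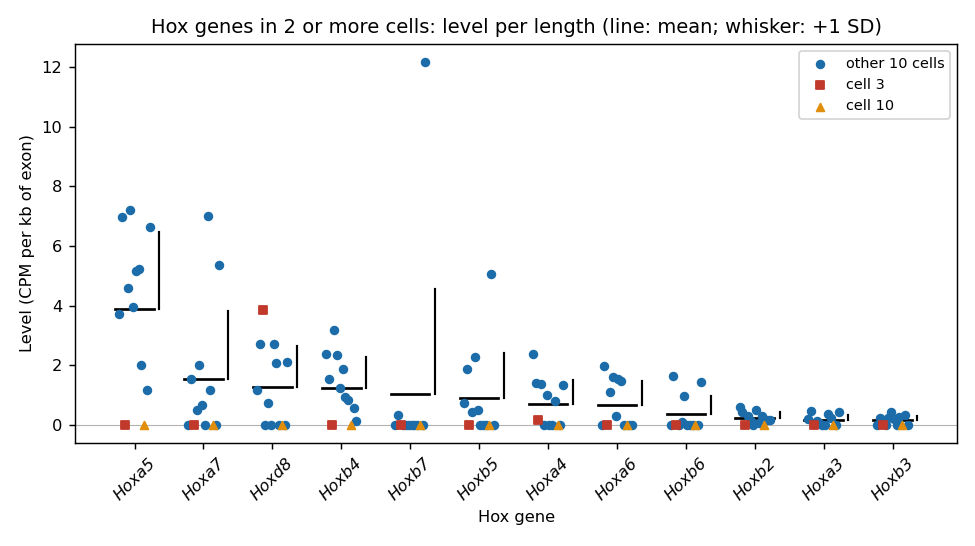
Level per length (CPM per kb of exon) of 12 Hox genes counted in at least 2 cells, with 1 point per cell, a line at the mean of 12 cells and a whisker of 1 SD above it; cell 3 (square) and cell 10 (triangle) are marked. Hoxa5 has the highest mean, 3.89 CPM per kb, and the highest single value is Hoxb7 in cell 12, at 12.2 CPM per kb.

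Cells differed in how much of the Hox set they held. The number of Hox genes with a count had a median of 8 and ran from 1 in cell 10 to 16 in cell 2, and the summed level was 30.1 ± 17.6 CPM (SD, 12 cells), from 0.939 to 60.8 CPM. Cell 2 had the widest set and cell 12 the highest sum, in which Hoxb7, Hoxa7 and Hoxa5 held the most counts. Cell 5 followed with 11 genes and 49.0 CPM. Cells 3 and 11 had 5 genes each, at 19.2 and 19.7 CPM, but shared no Hox gene. Without cells 3 and 10 the median number was 8.5 genes and the median sum 27.2 CPM. The libraries differed as well. In cells 7, 8, 10, 11 and 12, 10022 to 10181 of all genes were counted, at totals of 5258541 to 5690184 counts. The other cells had 11216 to 11950 genes counted, at totals of 3453708 to 5025517. Hox genes numbered 1 to 9 in the former cells and 5 to 16 in the latter, and the part of the libraries in this was not tested.

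**Figure D4:**
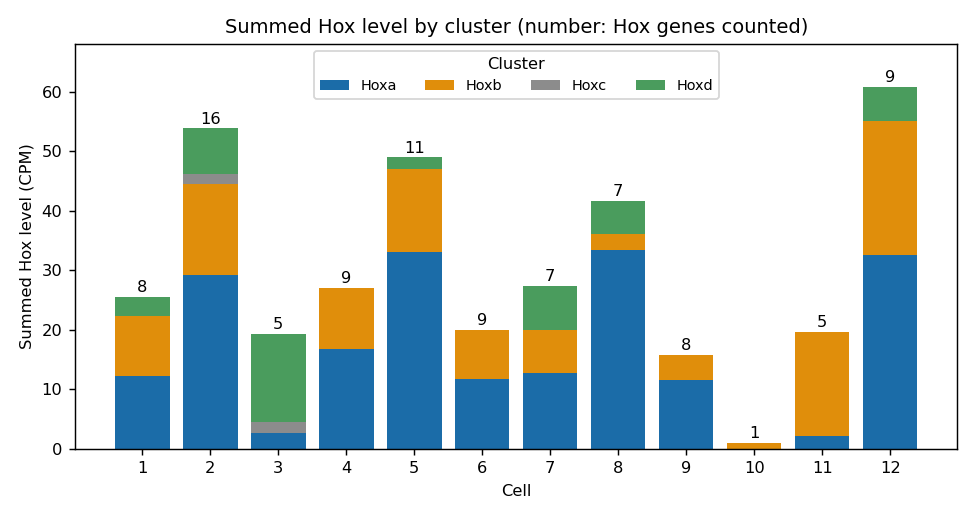
Summed Hox level of each cell in CPM, stacked by cluster, with the number of Hox genes counted above each bar. Cells 2, 5, 8 and 12 exceed 40 CPM with cluster a as the largest part, cell 3 consists mostly of cluster d (14.8 of 19.2 CPM), cell 11 mostly of cluster b (17.5 of 19.7 CPM), and cell 10 has 0.939 CPM.

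The posterior limit of each cell was also read by cluster. In cluster a the highest number with a count was 7 in cells 4, 5, 6, 8, 9 and 12, 6 in cell 7, 5 in cells 1 and 11, 4 in cell 3 and 10 in cell 2, while cell 10 had no count of this cluster. In cluster b it was 4 in cells 7, 8 and 9, 5 in cells 1, 4 and 11, 6 in cells 5 and 6, 7 in cells 2 and 12 and 8 in cell 10, while cell 3 had no count. Some of these limits rest on few reads, namely 1 count of Hoxa4 in cell 3, 1 of Hoxb6 in cell 5 and 2 of Hoxb7 in cell 2. In cluster d it was 8 in each of the 6 cells other than cell 3 that had a count, and 9 in cell 3. Over 12 cells the number of Hox genes counted had a Spearman's rho of -0.29 with the total count and of 0.53 with the number of all genes counted. Without cells 3 and 10 these were -0.41 and 0.48. The values describe these cells, which share library depth as a common factor.

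Levels of Hox genes of the same cluster were compared over the cells by rank, for the 11 genes counted in at least 6 cells. The median Spearman's rho was 0.25 for 21 pairs within a cluster (-0.07 to 0.77) and 0.19 for 34 pairs between clusters (-0.39 to 0.59), so the ranges overlapped widely. Without cell 10 these medians were 0.16 and 0.08, without cell 3 they were 0.36 and 0.12, and without cell 2 they were 0.18 and 0.10. Leaving out cell 7 gave the highest median within a cluster, 0.38, beside 0.19 between clusters. The most alike were Hoxa5 and Hoxa6 (rho 0.77), Hoxa5 and Hoxa7 (0.75) and Hoxa3 and Hoxa7 (0.73). In cluster b the highest values were 0.60 for Hoxb2 and Hoxb4 and 0.51 for Hoxb3 and Hoxb5. The points of these comparisons share cells, depth and many values of 0. Cells 3 and 10, for example, are at 0 for both Hoxa5 and Hoxa7.

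The DNA before the RefSeq start of transcription was compared between members with and without counts. For 22 of the 39 Hox genes RefSeq gave a promoter entry (GRCm38.p6, the build of mm10), and the 250 bases before that start are used here. Since GENCODE also holds longer transcripts, the windows of Hoxa3, Hoxa7, Hoxa9, Hoxa10, Hoxc4 and Hoxd4 lie within the annotated gene, and those of Hoxa6, Hoxb1, Hoxd3, Hoxd9 and Hoxd11 overlap its start. The windows of Hoxa5, Hoxb4 and Hoxa13 cover no annotated exon. Shown 5′ to 3′ are Hoxa5 and Hoxb4, the members counted in most cells, and Hoxa13, which had no counts and lies at the posterior end of the cluster of Hoxa5. Capitals mark each CG, the dinucleotide that is dense at promoters of developmental genes.
Hoxa5, chr6:52204588-52204837, minus strand: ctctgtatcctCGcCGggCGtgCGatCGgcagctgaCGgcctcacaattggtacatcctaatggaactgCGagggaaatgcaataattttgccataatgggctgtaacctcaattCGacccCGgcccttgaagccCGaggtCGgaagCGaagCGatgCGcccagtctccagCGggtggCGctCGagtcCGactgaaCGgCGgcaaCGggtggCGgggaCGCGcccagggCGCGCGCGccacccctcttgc
Hoxb4, chr11:96318017-96318266, plus strand: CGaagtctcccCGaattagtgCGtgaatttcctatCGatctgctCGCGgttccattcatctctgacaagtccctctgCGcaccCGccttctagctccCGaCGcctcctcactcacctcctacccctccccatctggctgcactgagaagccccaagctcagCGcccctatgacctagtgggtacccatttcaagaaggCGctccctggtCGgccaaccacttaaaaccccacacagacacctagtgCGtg
Hoxa13, chr6:52260881-52261130, minus strand: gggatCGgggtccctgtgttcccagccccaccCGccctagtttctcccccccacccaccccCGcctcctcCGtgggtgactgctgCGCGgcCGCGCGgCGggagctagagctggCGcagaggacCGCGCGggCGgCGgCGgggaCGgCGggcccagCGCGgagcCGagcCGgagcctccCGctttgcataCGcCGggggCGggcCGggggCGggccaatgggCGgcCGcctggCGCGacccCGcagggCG
These windows hold 28, 14 and 35 CG. The median was 13 CG for 11 counted members and 10 for 11 members without a count, against 6 over 27025 promoters of the same length. Both sets held members at or below 6 CG, namely Hoxd8 and Hoxa2 with 6 among the counted and Hoxa9 and Hoxd4 with 3 each among those without a count. The first entry was used for Hoxd11 (2 CG, and 20 in its other entry) and for Hoxa10 (20 CG, and 7 in its other entry). The letters CCAAT, on either strand, were in 63.6% of the counted and 63.6% of the uncounted members, and in 34.5% of all promoters. TATAAA was in 18.2% of both and in 13% of all. TGATNNAT, a form of the site that Hox proteins bind with Pbx partners, was in 3 of 22 Hox promoters and in 7.91% of all. A match is only a description of these letters.

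Hox proteins bind DNA with cofactors of the TALE homeobox family, and these were read together with Pbxip1, which is no homeobox gene but encodes a protein that binds Pbx. All 10 genes of this list had counts in some cell (66.6% of all genes did), and 7 had them in each of the 12 cells (35.3% of all genes). Pknox2 was counted in 4 cells, Pbx4 in 8 and Meis1 in 9. The sum over the list, Pbxip1 (median 43.8 CPM) included, had a median of 184 CPM, with 104 CPM in cell 3 as the lowest value, 128 CPM in cell 10 and 262 CPM as the highest. Among Pbx genes, the direct partners of Hox proteins, Pbx3 had a median of 12.4 CPM (0.541 to 77.0) and Pbx2 of 4.70 CPM (1.98 to 13.9). Among Meis genes, which bind Pbx, Meis3 had a median of 29.0 CPM (5.98 to 55.5) and Meis2 of 22.5 CPM (2.71 to 46.0), and Meis1 had a median of 12.2 CPM. Cell 10, with 5 Hox counts, thus kept a cofactor sum above that of cell 3.

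**Figure D5:**
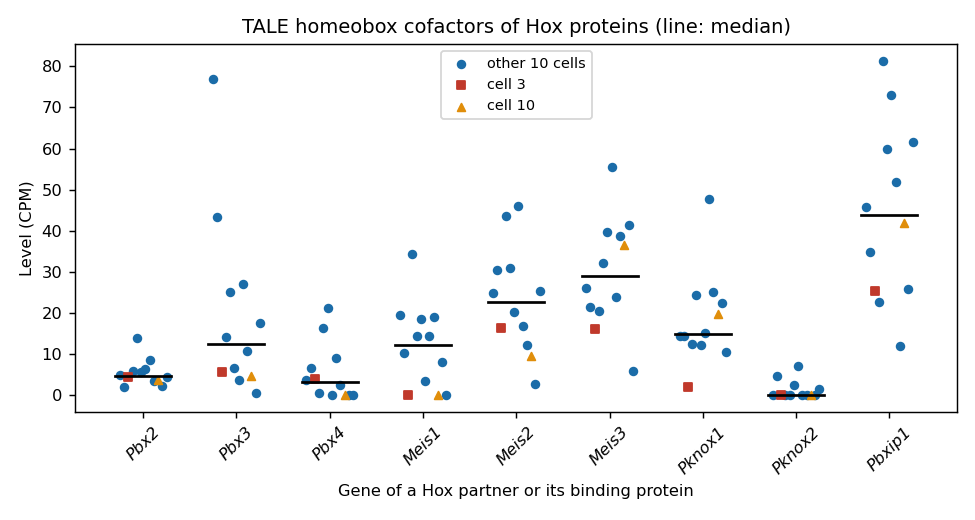
Level in CPM of 9 genes of TALE homeobox cofactors (and of Pbxip1, whose protein binds Pbx) in each cell, with a line at the median of 12 cells; cells 3 (square) and 10 (triangle) are marked. Meis3 has a median of 29.0 CPM and Pknox2 one of 0, and Meis1 is at 0 in cells 3, 10 and 12. For Pknox1 cell 3 lies below every other cell, at 1.85 CPM (next 10.5 CPM).

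Retinoic acid, made from vitamin A, switches on anterior Hox genes in the embryo through nuclear receptors. The receptor genes Rara (median 27.5 CPM), Rarg (15.6 CPM), Rxra (21.6 CPM) and Rxrb (23.3 CPM) were counted in each cell, whereas Rarb, itself a target of the pathway, was counted in 3 cells and was highest in cell 10 (24.4 CPM), and Rxrg had no counts. Of the enzymes that make retinoic acid, Aldh1a1 ran from 9.76 to 2284 CPM (median 1001), while Aldh1a2, the main enzyme of the embryonic trunk, was counted in 7 cells with a median of 2.67 CPM. Of those that degrade it, Cyp26b1 was counted in 10 cells (median 4.24 CPM) and Cyp26a1 and Cyp26c1 in none. In all, 14 of the 18 genes of the list were counted, 7 of them in each cell, where 66.6% and 35.3% of all genes were.

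The list for Polycomb, the system that keeps Hox genes silent, had all 22 genes counted and 15 in each cell (all genes 66.6% and 35.3%), with a median sum of 1225 CPM. It includes Kdm6a and Kdm6b, whose enzymes remove the Polycomb mark. The lowest sum, 714.8 CPM, was in cell 10, where Ezh2, the methyltransferase of the complex, had no counts (median over cells 54.8 CPM). Eed (median 53.6 CPM), Suz12 (23.6 CPM) and Bmi1 (94.0 CPM) were counted in each cell. The list of MLL and Trithorax genes, which keep Hox genes active, had all 12 members counted and 11 in each cell (all genes 66.6% and 35.3%), with a median sum of 528 CPM and its lowest sums in cell 3 (249 CPM) and cell 10 (300.0 CPM). Kmt2a, the founding MLL gene, had a median of 23.2 CPM (5.77 to 77.4). The part of these levels in the Hox values of cells 3 and 10 was not tested.

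Genes that mark position in the heart field and the lateral mesoderm were read beside the Hox genes. Of 28 listed genes 19 were counted, 8 of them in each cell, so this list was near or below the shares of all genes (66.6% in any cell, 35.3% in each). Their sum had a median of 678 CPM and its minimum in cell 3 (232.6 CPM). Prrx1, of limb and trunk mesenchyme, had a median of 222 CPM (8.82 to 725.7), Tbx20 of 117 CPM (0.364 to 319), Gata4 of 88.3 CPM (27.9 to 185) and Osr1 of 43.2 CPM (2.37 to 92.0). Tbx5, which patterns the heart and forelimb, was counted in 10 cells with a median of 1.75 CPM, and Tbx4, its hindlimb counterpart, had no counts.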

How the data were processed

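Polyadenylated RNA of 12 single cultured CPCs was copied to full-length cDNA with the Smart-Seq v4 kit and sequenced as paired 75-base reads. The authors mapped reads to mm10 with STAR 2.5.2b at default parameters and kept unique alignments. What they deposited is a table of read counts, unnormalized, with genes in rows and cells in columns, and the counting program, annotation and strand rule are not given in the sources used here.

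CPM was a count scaled to a total of 1000000 per cell. A gene was called counted at 1 count or more. Exon lengths (union of exons), overlaps and homeoboxes came from GENCODE vM21 and promoters from RefSeq. Intervals were exact Poisson or binomial at 0.95. Members are the genes matching the name rule, and members, gene lists and markers were chosen with earlier results of these data known. Values are printed in full for the 10 members with the highest median and for members counted in 1 to 3 cells that reached 10 CPM, and other members and list genes by ranges or as examples chosen after their values were seen. The 15 non-coding RNAs of the clusters are not analysed here, and a few genes and sequences are not reported here. Doublets were not called in 12 hand-picked cells, and no cell was filtered.

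Alternatives were detection thresholds, thinning to 3453708 counts, DESeq2 1.42.0 size factors, edgeR 4.0.16 TMM factors, other totals and lengths, and leaving out each cell. No model was fitted, since the cells are 1 sample. Steps were tested on simulated data. Software was R 4.3.3, Python 3.11.15, matplotlib 3.10.9, scipy 1.17.1, numpy 2.4.6 and pandas 2.3.3.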

Additional observations from a re-analysis of the deposited data

How the results depend on the processing

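For 18 results, 104 alternative settings were run beside leaving out each cell. In 90 of them the value stayed within its spread (for medians 1 SD across cells or pairs, for shares the exact interval, for gene numbers a factor of 1.5), and in 14 it did not. A stricter threshold takes in fewer values by construction. At 10 counts or more, 12 Hox genes were detected in any cell, the median per cell was 3, and the shares of values were 17.4% for cluster a, 11.7% for b and 0% for c. At 1 CPM the share of b was 21.7%. At 10 CPM, 6 genes were detected, the median per cell was 0.5, and the shares were 4.55% for a, 1.67% for b, 0% for c and 0.926% for d. With cells 3 and 10 set aside, an alternative chosen after seeing the data, 2 genes were counted in every remaining cell, which follows from leaving out the cells that lacked them. Among genes counted in at least 9 cells the median correlation within a cluster was 0.60, the value of the pair Hoxb2 and Hoxb4, since fewer genes are left. The 5 highest genes per kb were the same 5 under both other measures of length and without each of 11 cells, a check added after seeing the data, but without cell 12 only 4 of them were kept, as Hoxb7 fell out. Leaving out each cell in turn gave 17 to 20 genes detected in any cell, a median sum of 25.5 to 27.1 CPM and a median correlation of 0.16 to 0.38 within clusters and of 0.08 to 0.22 between them, all within the spread. No paired analysis was possible because there is 1 group. Values of 1 or 2 counts and the number of cells limit each statement on a rarely counted gene.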

Other observations

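Homeobox genes outside the Hox clusters were read as a further list. None of the 6 ParaHox and caudal genes had a count in any of the 12 cells, where 66.6% of all genes had one. Among them are Cdx1, Cdx2 and Cdx4, which act upstream of posterior Hox genes. Of 18 homeobox genes of the head and anterior body 12 were counted, a share close to the 66.6% of all genes, and 1 in each cell, against 35.3% of all genes, with a median sum of 55.3 CPM. This gene was Msx1 (median 14 CPM, 0.190 to 38.9), and En1 (median 14.7 CPM) and Dlx2 (13.4 CPM) in 11 cells each. Of the genes that pattern the forebrain and eye, Otx2, Emx1, Six3 and Six6 had no counts, Emx2 was counted in 5 cells at up to 5.87 CPM (cell 9), and Otx1 had 3 counts in cell 5. Dlx5 was at 21.2 CPM in cell 10 and at 0 elsewhere. Cell 10, with 0.939 CPM of Hox genes, had 60.6 CPM on this list, of which 38.9 CPM was Msx1.

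The genes beside the clusters showed no common low level. Mtx2, 60.7 kb beyond Hoxd1, had a median of 133.7 CPM, Lnpk, 88.9 kb beyond Hoxd13, 35.6 CPM, and Hibadh, 285 kb beyond Hoxa13, 111 CPM, each in 12 cells. Evx1 (52.6 kb beyond Hoxa13, nearer than Hibadh) and Evx2 (8.75 kb beyond Hoxd13, nearer than Lnpk) are homeobox genes of the posterior body and had no counts. Beside cluster b, Skap1 was counted in 6 cells at up to 3.21 CPM and Ttll6 in 2 cells at up to 0.959 CPM. Further out, Snx11 was counted in 11 cells (median 7.24 CPM) and Calcoco2 in none. Beside cluster c, Atp5g2 had a median of 66.6 CPM and Calcoco1 of 28.8 CPM, each in 12 cells. Smug1 had a median of 5.18 CPM in 10 cells, and 5730585A16Rik had no counts.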
